A study of Mus musculus with 9 samples.

Results

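The endoplasmic reticulum (ER) stress genes described here were 36 genes of the unfolded protein response and of protein folding in the ER, found by name among the 35024 rows of a bulk RNA-sequencing table of mouse hepatic stellate cells. They comprised 5 stress sensors and tethered factors, 3 transcription factors, 4 outputs of the integrated stress response, 11 folding chaperones and cofactors, 3 protein disulfide isomerases, 5 genes of ER-associated degradation and 5 genes of translocation into and export out of the ER. All 36 names were present, and all 36 passed the filter of a value above the lowest in at least 4 libraries. The 9 libraries were put by label into 4 YAP-deleted (LYT006, LYT008, LYT013 and LYT016), from mice with floxed Yap1 that also carried LratCre, and 5 control (LYT004, LYT005, LYT014, LYT015 and LYT017), from mice with floxed Yap1 and no Cre. Both groups were on a C57BL/6J background and both had injured livers, after 6 injections of carbon tetrachloride (CCl4, a liver toxin) given every 3 days, with cells taken 2 days after the last one. Stellate cells, which store vitamin A around the liver sinusoids, were enriched on a density gradient, sorted on retinoid autofluorescence and lysed directly after the sort. The Lrat promoter is active in stellate cells. By label, every YAP-deleted library carried the Cre and no control did, so effects of Cre and of Yap1 loss cannot be told apart. The labels do not say that each library was a separate mouse, so p-values cover only the spread from library to library, which may be technical. Mouse ages are not stated in these labels.

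The unfolded protein response matches the folding capacity of the ER to the load of secretory protein. Its sensors lie in the ER membrane: IRE1 (Ern1) splices Xbp1 mRNA, PERK (Eif2ak3) slows translation and favours the synthesis of ATF4, and ATF6 is cut in the Golgi to free a transcription factor. XBP1 and ATF6 drive chaperones, oxidoreductases and degradation factors, whereas ATF4 drives amino acid metabolism, the factor CHOP (Ddit3) and Ppp1r15a, which restores translation. Activated stellate cells secrete large amounts of fibrillar collagen, which is folded and modified in the ER, and Col1a1, the gene of the main chain of type I collagen, served here as the measure of that load. A gene table cannot tell spliced from unspliced Xbp1, nor the cut from the uncut ATF6 protein.

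The promoters show which members carry the sequence elements through which these factors act. RefSeq promoter windows (GRCm38.p6, 250 bases before to 50 after the RefSeq gene start) were found for 31 of the 36 members, with none for Manf, Hyou1, Atf6, Creb3l1 and Sec61a1. RefSeq starts can differ from the GENCODE gene positions given further below. The ER stress element (ERSE, CCAAT and CCACG with 9 bases of any letter between them, read on both strands), a site of ATF6 and NF-Y, stood in 8 of 31 member windows (25.8%), against 39 of all 32851 windows (0.119%). Of those 39 windows 31 belonged to other genes, so the members are part of the set beside them. The sites below are shown because the abundant chaperones carry them, with the fixed letters in capitals, 5′ to 3′ on the strand that holds the motif.
Hspa5: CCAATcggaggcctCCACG
Calr: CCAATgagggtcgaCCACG
Hsp90b1 site 1: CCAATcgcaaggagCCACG
Hsp90b1 site 2: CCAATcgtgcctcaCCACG
Canx: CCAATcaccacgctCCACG
Pdia6: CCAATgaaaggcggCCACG
Dnajc3: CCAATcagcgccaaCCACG
Creld2: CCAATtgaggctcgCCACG
Syvn1: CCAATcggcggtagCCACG
In Hspa5, which encodes the Hsp70 chaperone BiP, the site lay at chr2:34772025-34772043 and began 65 bases before the RefSeq start. The GENCODE start of Hspa5 (34771970) lies upstream of the site, which thus falls inside that gene annotation. In Calr, which encodes the lectin chaperone calreticulin, it lay at chr8:84847075-84847093, and in Canx, which encodes the membrane-bound lectin chaperone calnexin, at chr11:50325800-50325818. Hsp90b1, the gene of the ER Hsp90 protein GRP94, held a pair of sites at chr10:86705638-86705656 and chr10:86705533-86705551. The other sites lay at chr12:17266491-17266509 (Pdia6), chr14:118937827-118937845 (Dnajc3), chr15:88819520-88819538 (Creld2) and chr19:6046532-6046550 (Syvn1).

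A second form of the element, ERSE-II (ATTGG and CCACG with 1 base of any letter between them, both strands), stood in 2 of 31 member windows (6.45%), against 12 of all windows (0.0365%), 10 of them of other genes. The 2 members were Herpud1, a membrane protein of the degradation complex, at chr8:94386377-94386387, and Dnajb11, a BiP cochaperone, at chr16:22857852-22857862, where it began 8 bases after the start. The fixed letters are in capitals.
Herpud1: ATTGGgCCACG
Dnajb11: ATTGGcCCACG
The element bound by XBP1 (UPRE, TGACGTGG, both strands) was found in 2 member windows, those of the COPII coat genes Sec24d and Sec23a, and in 222 of all windows (0.676%). The C/EBP-ATF composite element (TGATGCAA, both strands), a site of ATF4 and CHOP, was in the windows of Chac1 and Herpud1 and in 294 of all windows (0.895%). The letters CCACG are shared by ERSE and ERSE-II and pair with the end of the UPRE, and ATTGG is the complement of CCAAT read backwards. A match is a description of the window and not a binding site, and the shares of windows were not tested.

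The 250 bases before the RefSeq start are printed for 3 members on which the results below turn, in 5′ to 3′ order on the gene's strand. For Hspa5 part of this stretch lies inside the GENCODE gene. They are Hspa5, the gene of BiP, at chr2:34771840-34772089, Creld2, the 1 member whose level was tied to Col1a1 over all 9 libraries, at chr15:88819396-88819645, and Herpud1, which carries both an ERSE-II and a C/EBP-ATF match, at chr8:94386179-94386428. Capitals mark the fixed letters of the matches, and in Creld2 the ERSE and in Herpud1 the C/EBP-ATF match read on the opposite strand.
Hspa5: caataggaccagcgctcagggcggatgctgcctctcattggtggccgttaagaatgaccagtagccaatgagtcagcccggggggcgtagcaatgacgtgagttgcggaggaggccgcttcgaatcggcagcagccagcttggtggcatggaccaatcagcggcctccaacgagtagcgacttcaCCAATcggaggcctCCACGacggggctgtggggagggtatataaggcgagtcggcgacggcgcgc
Creld2: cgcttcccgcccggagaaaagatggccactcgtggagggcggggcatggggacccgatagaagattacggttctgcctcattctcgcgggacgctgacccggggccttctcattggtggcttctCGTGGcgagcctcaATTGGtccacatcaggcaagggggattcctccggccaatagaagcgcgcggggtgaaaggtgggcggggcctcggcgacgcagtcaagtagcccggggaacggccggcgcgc
Herpud1: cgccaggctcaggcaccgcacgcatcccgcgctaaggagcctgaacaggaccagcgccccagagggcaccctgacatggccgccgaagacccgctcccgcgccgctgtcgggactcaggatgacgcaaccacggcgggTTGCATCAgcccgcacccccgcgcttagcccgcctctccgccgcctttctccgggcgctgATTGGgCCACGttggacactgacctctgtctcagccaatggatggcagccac

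Recovered depth ran from 14052502 counts (control LYT017) to 31816055 (YAP-deleted LYT013), with 16282 to 17341 genes above the lowest value. Yap1, the deleted gene, checked the labels. It had 642, 648 and 645 normalised counts in YAP-deleted LYT006, LYT008 and LYT016 and 2530 in YAP-deleted LYT013, against 2902, 2915, 3653 and 3551 in control LYT004, LYT005, LYT015 and LYT017 and 618 in control LYT014. LYT013 and LYT014 thus went against their labels and are shown apart throughout. As labelled, the difference in Yap1 was −1.30 log2-like units (exact permutation p = 0.0794, two-sided, 126 regroupings). All 12 stellate cell markers were detected, with Lrat at 35209 to 69555 normalised counts in every library. The macrophage list summed to 1084 to 2710 normalised counts in YAP-deleted and 747 to 2043 in control libraries, with the Kupffer cell marker Adgre1 at 9.81 to 57.0. The list for B and plasma cells, a secretory type rich in ER chaperones, summed to 149 to 360 in YAP-deleted and 236 to 606 in control libraries, with Cd79a at 1.28 to 10.2, Jchain at 0 to 3.59 and 3 of its 12 genes at 0 in every library. Sdc1 carried that sum, at 123 to 571. In bulk samples fewer cells of a type and less RNA per cell cannot be told apart.

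The chaperones Calr, Hsp90b1 and Hspa5 and the disulfide isomerase Pdia3 made up the top of the list. Per kilobase of the longest transcript, the median over the 9 libraries was 9158 normalised counts for Calr, 8929 for Hsp90b1, 5791 for Hspa5 and 5584 for Pdia3, a disulfide isomerase that works with the lectin chaperones. Ppp1r15a followed with 3377, Atf4 with 2558, Pdia6 with 2175 and Xbp1 with 2060 normalised counts per kilobase. The other chaperones stood lower, down to Creld2 at 519 and Sdf2l1 at 368. The sensors stood near the bottom, with Atf6 at 203, Eif2ak3 at 176 and Ern1 at 118.

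Of the 4 stress response outputs, 3 were barely detected. Trib3, a pseudokinase induced by CHOP, had 1 to 4 recovered counts in each library. Chac1, which degrades glutathione, had 1 to 6, and Asns, the asparagine synthetase, had 3 to 11. At these depths no difference between groups was detectable for these genes, and no fold change is given. They remain in the tallies over all members below. The remaining 33 members had medians of 308 (Ddit3) to 25226 (Hsp90b1) normalised counts.

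Library to library, the members moved by unequal amounts. On the log2-like scale the distance between the lowest and the highest library was 0.36 for Mia3, which exports collagen at ER exit sites, and 0.40 for Sec61a1, the pore of the translocon. It was 1.38 for Hspa5, 1.70 for Manf, a secreted factor induced by ER stress, 1.72 for Ppp1r15a and 2.09 for Ddit3. Control LYT004 had the lowest value of 15 of the 36 members and of 9 of the 11 chaperones, although over all tested genes it was lowest in 13.6%. YAP-deleted LYT013 was highest for 10 members and lowest for 12, and over all tested genes it was highest in 26.8% and lowest in 26%. No other library was lowest for more than 3 members.

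**Figure D1:**
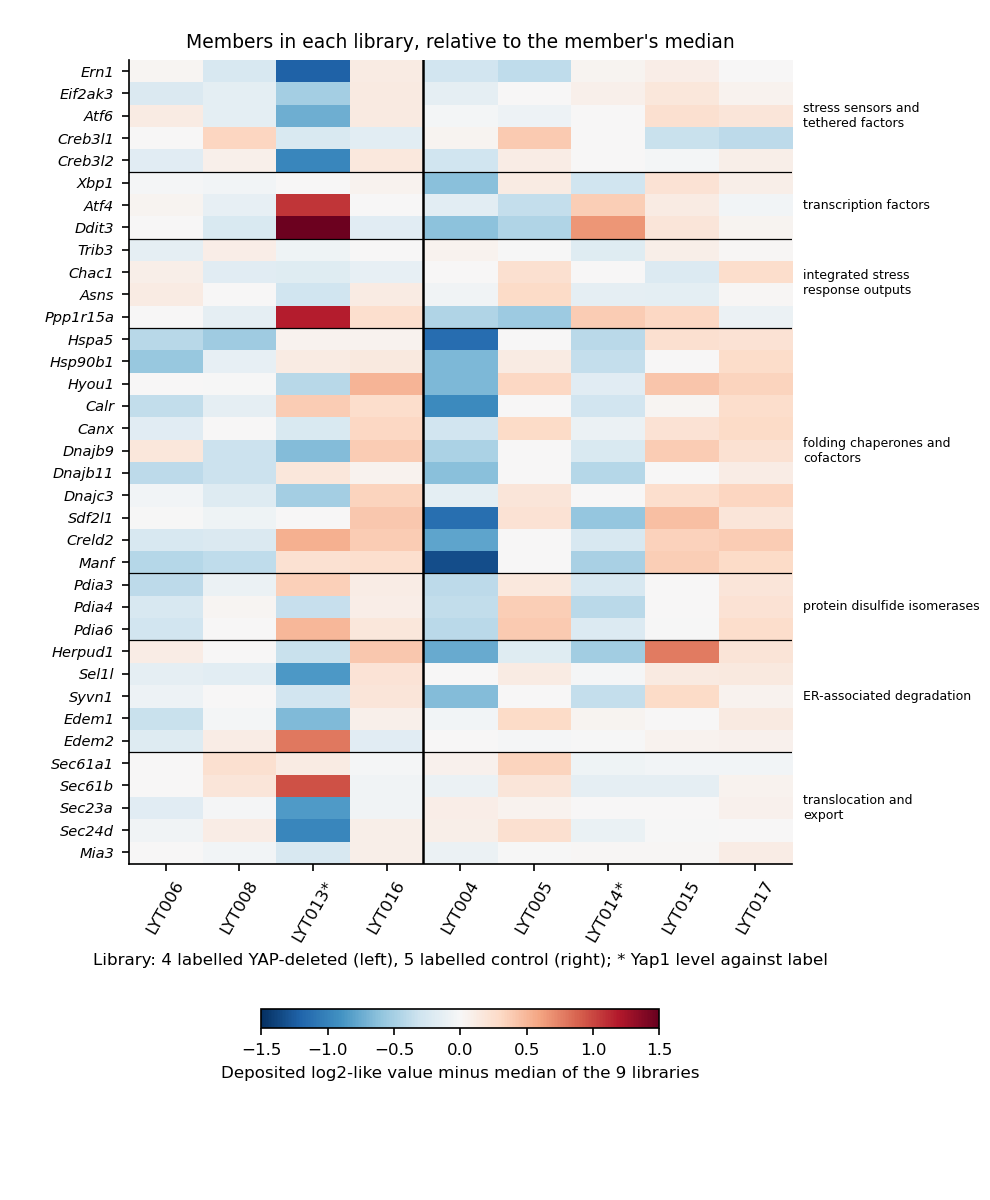
Each cell is the deposited log2-like value of a member (down, by role) in a library (across, 4 labelled YAP-deleted left of 5 labelled control) minus the median of the member over the 9 libraries, blue below and red above, with an asterisk on LYT013 and LYT014. The column of LYT004 is blue through the 11 chaperones, and that of LYT013 mixes deep red (Ddit3, Ppp1r15a, Atf4, Sec61b) with deep blue (Ern1, Creb3l2, Sec24d, Sel1l).

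Between the groups, no ER stress or folding gene passed the test. With all 9 libraries as labelled, limma called 0 of 36 members in either direction for YAP-deleted against control, beside 0% higher and 0% lower of the 17203 genes tested (Benjamini-Hochberg adjusted p under 0.05). Member adjusted p-values ran from 0.649 to 0.995. At an unadjusted p under 0.05 there were 0 members among 1242 genes by limma and 0 among 1319 by voom on the recovered counts. Of the 36 differences 19 were positive and 17 negative, with a median of 0.0148 log2-like units, beside −0.00453 over all genes tested. Without LYT013 and LYT014 limma called again 0 members in either direction, against 0.0174% of genes higher and 0.0523% lower. The groups of 9 libraries were free of overlap for 0 members with YAP-deleted higher, against 1.69% of all genes. With YAP-deleted lower they were free of overlap for 1 member of 36 (2.78%), the COPII coat gene Sec23a, against 1.15% of all genes.

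Of the 5 sensors and tethered factors 4 had a negative difference, none past the test, with a median of −0.22 over 9 libraries and 0.05 without LYT013 and LYT014. Ern1 (chr11:106394650-106487852, minus strand) had 835, 680 and 894 normalised counts in YAP-deleted LYT006, LYT008 and LYT016 and 320 in LYT013, against 657, 611, 881 and 817 in control LYT004, LYT005, LYT015 and LYT017 and 840 in LYT014. The groups overlapped, and LYT013 was the lowest of the 9. The same order of libraries holds where codes are not repeated below. Its difference was −0.22 ± 0.24 log2-like units (SE, 95% interval −0.76 to 0.32, limma adjusted p = 0.765) and 0.11 ± 0.14 without LYT013 and LYT014. Atf6 (chr1:170704674-170867771, minus strand) had 1615, 1325 and 1626 in the YAP-deleted libraries and 863 in LYT013, against 1447, 1388, 1751 and 1680 in the control libraries and 1472 in LYT014, a difference of −0.22 ± 0.17. These groups overlapped too, and the difference was −0.04 ± 0.11 without LYT013 and LYT014. Eif2ak3 had 677, 712 and 880 normalised counts in the YAP-deleted libraries and 537 in LYT013, against 720, 794, 900 and 825 in the control libraries and 838 in LYT014. LYT013 was its lowest library as well.

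Creb3l1 and Creb3l2 are ATF6-like factors held in the ER membrane until cut, and Creb3l1 is known to drive collagen genes. Creb3l1 (chr2:91982328-92024502, minus strand) had 2609, 3284 and 2328 normalised counts in YAP-deleted LYT006, LYT008 and LYT016 and 2217 in LYT013, against 2683, 3435, 2059 and 1976 in control LYT004, LYT005, LYT015 and LYT017 and 2617 in LYT014. The groups overlapped over almost their whole range, with a difference of 0.04 ± 0.17 (SE, limma adjusted p = 0.947). Creb3l2 had 3334, 3981 and 4196 normalised counts in the YAP-deleted libraries and 1884 in LYT013, against 3055, 4077, 3679 and 3995 in the control libraries and 3764 in LYT014. Its highest and its lowest library were both YAP-deleted.

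Ddit3 and Atf4, the factors of the PERK arm, and the feedback gene Ppp1r15a had their highest value in LYT013. Ddit3 (chr10:127290774-127296288, plus strand) had 308, 255 and 267 normalised counts in YAP-deleted LYT006, LYT008 and LYT016 and 960 in LYT013, against 181, 210, 358 and 317 in control LYT004, LYT005, LYT015 and LYT017 and 522 in LYT014. Without the 2 libraries that went against their labels the 3 YAP-deleted values lay inside the control range. The difference was 0.31 ± 0.36 (SE, limma adjusted p = 0.776) over 9 libraries and 0.08 ± 0.20 over 7. Ddit3 shares 68 exon bases with Mars on the opposite strand. The sources used here do not say whether counting used strand.

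Atf4 (chr15:80255184-80257541, plus strand) had 4548, 4064 and 4413 normalised counts in YAP-deleted LYT006, LYT008 and LYT016 and 9329 in LYT013, against 3955, 3440, 4802 and 4283 in control LYT004, LYT005, LYT015 and LYT017 and 5695 in LYT014. The difference was 0.26 ± 0.24 over 9 libraries and 0.08 ± 0.12 without LYT013 and LYT014. Ppp1r15a (chr7:45522916-45526268, minus strand), the GADD34 subunit that dephosphorylates eIF2α, had 9485, 8608 and 11300 in the YAP-deleted libraries and 21564 in LYT013, against 6911, 6491, 11769 and 8885 in the control libraries and 12396 in LYT014. Again the groups overlapped, and the difference of 0.40 ± 0.29 (SE, limma adjusted p = 0.667) was 0.23 ± 0.21 without those libraries. Xbp1, the target of IRE1 splicing, had 4334, 4263 and 4564 normalised counts in the YAP-deleted libraries and 4387 in LYT013, against 2809, 4801, 5111 and 4678 in the control libraries and 3553 in LYT014. The YAP-deleted values lay close together, inside the control range. Xbp1 averaged 4387 ± 128 normalised counts in the YAP-deleted and 4190 ± 971 in the control libraries (SD, n = 4 and 5).

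Chaperones did not separate the groups. Hspa5 (chr2:34771970-34777547, plus strand) had 15944, 14643 and 22030 normalised counts in YAP-deleted LYT006, LYT008 and LYT016 and 22062 in LYT013, against 9590, 21264, 25116 and 24721 in control LYT004, LYT005, LYT015 and LYT017 and 16052 in LYT014. The control libraries held both the lowest and the 2 highest values. Its difference was 0.01 ± 0.28 log2-like units (SE, 95% interval −0.61 to 0.63, limma adjusted p = 0.995), and −0.13 ± 0.33 without LYT013 and LYT014. Hsp90b1 had 17039, 23082 and 28019 normalised counts in the YAP-deleted libraries and 27521 in LYT013, against 15841, 27463, 25226 and 30535 in the control libraries and 19611 in LYT014. The YAP-deleted values all lay inside the control range. Hsp90b1 averaged 23915 ± 5093 normalised counts in the YAP-deleted and 23735 ± 5951 in the control libraries (SD, n = 4 and 5).

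Calr (chr8:84841850-84846934, minus strand) had 15419, 18234 and 23986 normalised counts in YAP-deleted LYT006, LYT008 and LYT016 and 26126 in LYT013, against 10267, 20002, 20414 and 23979 in control LYT004, LYT005, LYT015 and LYT017 and 16316 in LYT014. Within both groups the spread exceeded the difference of 0.23 ± 0.25 (SE, limma adjusted p = 0.766). Calr has a processed pseudogene, Calr-ps, and how reads were split between them is not given. Manf (chr9:106838312-106891979, minus strand) had 1540, 1589 and 2505 in the YAP-deleted libraries and 2456 in LYT013, against 794, 2094, 2717 and 2565 in the control libraries and 1471 in LYT014, a difference of 0.15 ± 0.32. Its annotation shares 146 exon bases with Dcaf1 on the opposite strand and 14 with Rbm15b on its own.

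Over the 11 chaperones 7 differences were positive and 4 negative, with a median of 0.02. The others work around BiP and the lectin chaperones, and each overlapped between the groups. Hyou1, a nucleotide exchange factor of BiP, had 2543, 2542 and 3634 normalised counts in the YAP-deleted libraries and 1897 in LYT013, against 1565, 3169, 3417 and 3234 in the control libraries and 2249 in LYT014. Canx had 6502, 7295 and 9060 normalised counts in the YAP-deleted libraries and 6203 in LYT013, against 5971, 8907, 8481 and 8882 in the control libraries and 6833 in LYT014. In both LYT004 was low and LYT016 the highest YAP-deleted library. BiP is also served by J-domain cofactors, of which Dnajb9 represses IRE1. Dnajb9 had 1789, 1251 and 2076 normalised counts in the YAP-deleted libraries and 990 in LYT013, against 1128, 1585, 2077 and 1872 in the control libraries and 1343 in LYT014. Dnajb11 had 1314, 1378 and 1814 normalised counts in the YAP-deleted libraries and 1961 in LYT013, against 1105, 1742, 1752 and 1890 in the control libraries and 1283 in LYT014. Dnajc3 had 3687, 3324 and 4836 normalised counts in the YAP-deleted libraries and 2656 in LYT013, against 3443, 4338, 4556 and 4786 in the control libraries and 3809 in LYT014. LYT013 had the lowest Dnajb9 and Dnajc3 and the highest Dnajb11. Sdf2l1, which binds Dnajb11, had 406, 389 and 558 normalised counts in the YAP-deleted libraries and 408 in LYT013, against 157, 483, 578 and 471 in the control libraries and 255 in LYT014. In normalised counts it had the largest ratio of the chaperones between the highest and the lowest library, 3.69. On the log2-like scale its range of 1.58 was below the 1.70 of Manf.

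The disulfide isomerases form and rearrange the disulfide bonds of secretory proteins, and Pdia6 also acts on the sensors. Pdia3 had 11804, 14592 and 16648 normalised counts in the YAP-deleted libraries and 19778 in LYT013, against 11734, 17317, 15467 and 17547 in the control libraries and 13054 in LYT014. Pdia4 had 3655, 4444 and 4666 normalised counts in the YAP-deleted libraries and 3408 in LYT013, against 3353, 5637, 4340 and 5062 in the control libraries and 3256 in LYT014. Pdia6 had 3861, 4730 and 5336 normalised counts in the YAP-deleted libraries and 6705 in LYT013, against 3557, 6224, 4715 and 5687 in the control libraries and 4084 in LYT014. LYT013 had the highest Pdia3 and Pdia6, and control LYT005 the highest Pdia4. The disulfide isomerases Pdia3, Pdia4 and Pdia6 averaged 15706 ± 3363, 4043 ± 606 and 5158 ± 1196 normalised counts in the YAP-deleted libraries, against 15024 ± 2575, 4330 ± 1043 and 4853 ± 1103 in the control libraries.

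**Figure D2:**
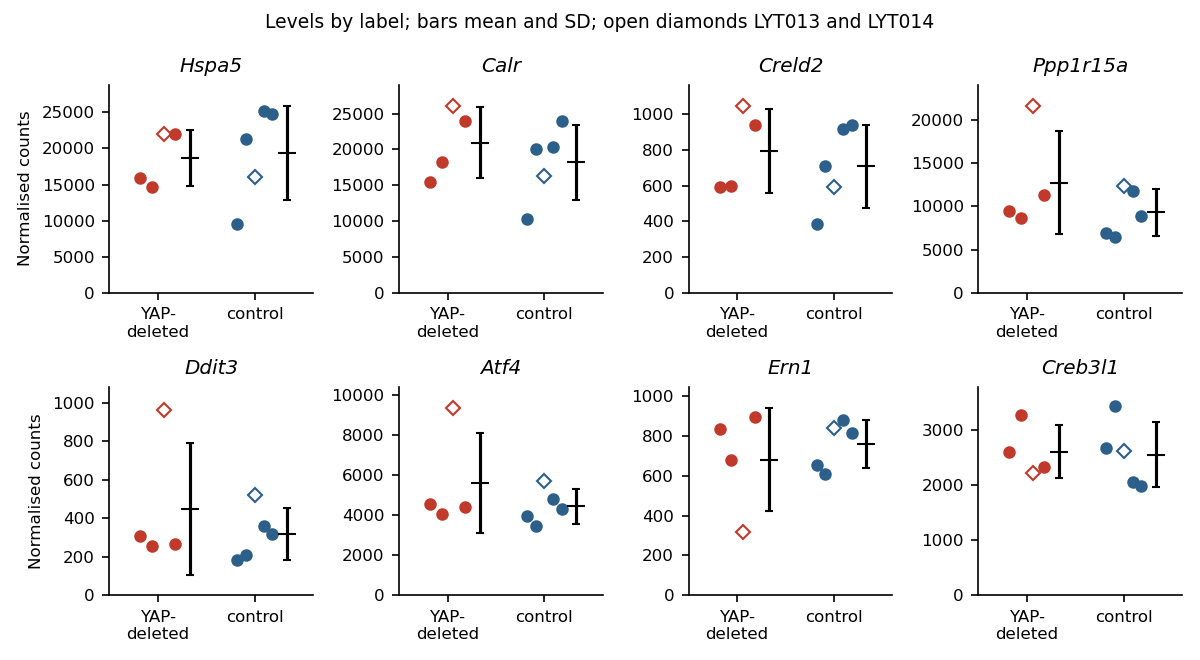
Normalised counts of 8 members in each library (points, YAP-deleted in red left of control in blue, open diamonds LYT013 and LYT014), with the mean and SD of each label group as a bar, on axes that start at 0. The groups overlap in every panel, and LYT013 is the highest point of Ddit3, Atf4 and Ppp1r15a and the lowest of Ern1.

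The lowest member p-values belonged to degradation and export genes. Edem1, a lectin that routes misfolded glycoproteins to degradation, had 1086, 1351 and 1465 normalised counts in YAP-deleted LYT006, LYT008 and LYT016 and 857 in LYT013, against 1348, 1705, 1385 and 1533 in control LYT004, LYT005, LYT015 and LYT017 and 1424 in LYT014. The groups overlapped, with a difference of −0.32 ± 0.15 (SE, limma adjusted p = 0.649) and −0.19 ± 0.12 without LYT013 and LYT014. Sel1l, the scaffold of the ubiquitin ligase Syvn1 (HRD1), had 3023, 2966 and 3816 in the YAP-deleted libraries and 1800 in LYT013, against 3313, 3622, 3653 and 3679 in the control libraries and 3277 in LYT014. Its difference was −0.32 ± 0.18, and −0.13 ± 0.11 over 7 libraries. Herpud1 had 2157, 2000 and 2660 normalised counts in the YAP-deleted libraries and 1569 in LYT013, against 1158, 1764, 3463 and 2295 in the control libraries and 1370 in LYT014. Its highest and lowest libraries, LYT015 and LYT004, were both control. Syvn1 had 1277, 1352 and 1536 normalised counts in the YAP-deleted libraries and 1094 in LYT013, against 837, 1352, 1656 and 1402 in the control libraries and 1038 in LYT014. Edem2, which trims mannose from misfolded glycoproteins, had 694, 874 and 707 normalised counts in the YAP-deleted libraries and 1432 in LYT013, against 802, 795, 837 and 841 in the control libraries and 795 in LYT014. Edem2 was even across all libraries except LYT013.

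Sec23a (chr12:58958383-59012017, minus strand), an inner coat protein of the COPII vesicles that leave the ER, had 1375, 1535 and 1497 normalised counts in YAP-deleted LYT006, LYT008 and LYT016 and 836 in LYT013, against 1672, 1610, 1555 and 1624 in control LYT004, LYT005, LYT015 and LYT017 and 1566 in LYT014. Every YAP-deleted library was below every control library; on the deposited scale the highest YAP-deleted value was 10.64 and the lowest control value 10.66. The difference was −0.32 ± 0.16 (SE, limma adjusted p = 0.649) and −0.13 ± 0.08 without LYT013 and LYT014, so it did not pass in either set. Sec61b, a small translocon subunit, had 474, 547 and 456 in the YAP-deleted libraries and 976 in LYT013, against 442, 547, 425 and 492 in the control libraries and 428 in LYT014, a difference of 0.30 ± 0.19 over 9 libraries and 0.04 ± 0.11 over 7. Sec24d, a cargo adaptor of the same coat, had 3216, 3619 and 3548 normalised counts in the YAP-deleted libraries and 1668 in LYT013, against 3569, 3966, 3319 and 3343 in the control libraries and 3121 in LYT014. LYT013 was its lowest library. Sec61a1 had 3773, 4485 and 3713 normalised counts in the YAP-deleted libraries and 4130 in LYT013, against 3953, 4780, 3661 and 3680 in the control libraries and 3606 in LYT014. Mia3 had 2233, 2164 and 2376 normalised counts in the YAP-deleted libraries and 1880 in LYT013, against 2094, 2227, 2263 and 2426 in the control libraries and 2253 in LYT014. All 3 overlapped between the groups.

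**Figure D3:**
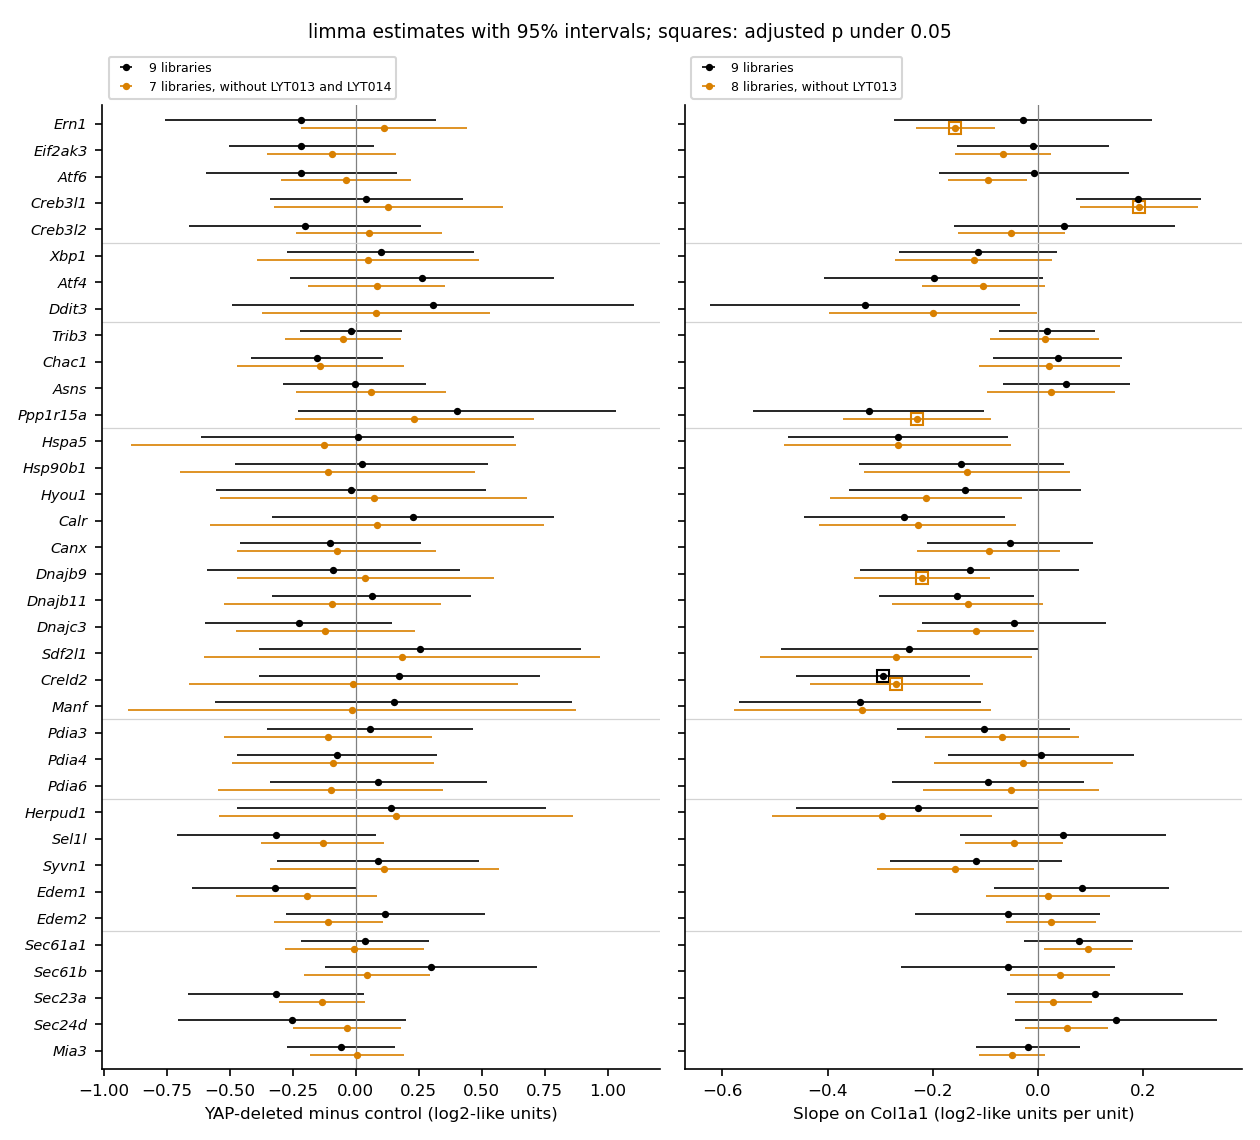
Left, limma differences of the 36 members (YAP-deleted minus control, log2-like units) over 9 libraries (black) and without LYT013 and LYT014 (orange), and right, slopes on the Col1a1 value over 9 libraries (black) and without LYT013 (orange), each with its 95% interval, with squares at adjusted p under 0.05. The left panel has 0 squares, and the right has 1 in black (Creld2) and 5 in orange.

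The members were next set against Col1a1 in the same libraries. Col1a1 had 43449, 89565 and 21307 normalised counts in YAP-deleted LYT006, LYT008 and LYT016 and 24299 in LYT013, against 168118, 159395, 33002 and 23643 in control LYT004, LYT005, LYT015 and LYT017 and 50001 in LYT014. Over the 9 libraries the slope of the log2-like value on that of Col1a1 was negative for 11 of the 11 chaperones (median −0.15) and for 3 of 3 transcription factors. Over all members 25 slopes were negative and 11 positive (median −0.0566, beside −0.00355 over the 17202 genes tested). Among the positive slopes were those of the barely detected Trib3 (0.02), Chac1 (0.04) and Asns (0.05). Limma called 1 member negative, Creld2 (2.78% of members, against 1.1% of genes), and 0 members positive, against 4.04% of genes. Those shares rest on 695 positive and 190 negative genes, and with each library centred on its median they were 570 and 433. At an unadjusted p under 0.05 there were 7 negative members of 36, against 8.18% of genes, and 1 positive, against 10% of genes. The lean of the member slopes depended on the libraries. Without LYT004, 23 were negative and 13 positive, with a median of −0.0174. Among library codes 4 to 8 alone, 17 were negative and 19 positive, with a median of 0.0155. Among codes 13 to 17 alone, 24 were negative and 12 positive, with a median of −0.129.

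Creld2 (chr15:88819646-88826683, plus strand) had 593, 600 and 940 normalised counts in YAP-deleted LYT006, LYT008 and LYT016 and 1048 in LYT013, against 386, 709, 918 and 940 in control LYT004, LYT005, LYT015 and LYT017 and 591 in LYT014. LYT004, with the most Col1a1, had the least, and the 4 libraries with the least Col1a1 had the most. The slope was −0.29 ± 0.08 per log2-like unit of Col1a1 (SE, limma adjusted p = 0.0461), with r = −0.794 (exact permutation p = 0.0108, 0.126 after adjustment over 17202 genes) and rho = −0.80 (exact p = 0.0138). Without LYT004 and LYT005, the libraries farthest from the median of Col1a1, r was −0.859. The call ended without LYT004 (−0.22, limma adjusted p = 0.312), and likewise without any 1 of LYT008, LYT014, LYT015, LYT016 and LYT017, where adjusted p-values lay between 0.0526 and 0.104. It also ended within either range of library codes, without the filter, and with group label or the mean of cell cycle genes as covariate. With Col3a1 in place of Col1a1 Creld2 was not called. Nor was it with the mean of 6 matrix genes (Col1a1, Col1a2, Col3a1, Col5a1, Col5a2 and Fn1). With that mean the negative call was Ppp1r15a (−0.72, limma adjusted p = 0.0362), so the member called depended on the measure of load.

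The abundant chaperones Hspa5 and Calr, and Manf, had negative slopes that did not pass. Hspa5 had a slope of −0.26 ± 0.10 (limma adjusted p = 0.157), with r = −0.681 (exact permutation p = 0.0406, 0.246 adjusted) and rho = −0.733 (exact p = 0.0311). Calr had −0.25 ± 0.09 (limma adjusted p = 0.136), with r = −0.710 (exact permutation p = 0.0274, 0.203 adjusted) and rho = −0.783 (exact p = 0.0172). Manf had −0.34 ± 0.11 (limma adjusted p = 0.0979), with r = −0.710 (exact permutation p = 0.0271, 0.202 adjusted) and rho = −0.733 (exact p = 0.0311). Without LYT004 and LYT005 the r of Hspa5, Calr and Manf was −0.850, −0.753 and −0.808.

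The 2 libraries with the most Col1a1 differed from each other in these genes. LYT004 and LYT005 had 168118 and 159395 normalised Col1a1 counts, yet Hspa5 was at 9590 and 21264 counts, Manf at 794 and 2094 and Creld2 at 386 and 709. Without LYT005 limma called 4 of 36 members negative, against 0.36% of genes, and 0 positive, against 2.48%. These were Hspa5 (slope −0.43, adjusted p = 0.0139), Calr (−0.38, adjusted p = 0.0366), Manf (−0.52, adjusted p = 0.00664) and Creld2 (−0.41, adjusted p = 0.00827). Without LYT004 it called none of these, with slopes of −0.14, −0.14, −0.18 and −0.22. Among library codes 4 to 8 alone, the 4 slopes were −0.10, −0.09, −0.16 and −0.10, and among codes 13 to 17 alone −0.37, −0.51, −0.57 and −0.53, none of them called.

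Leaving out LYT013 changed which members were called. Limma then called 4 members negative (11.1%, against 3.38% of genes) and 1 positive (2.78%, against 5.67% of genes). Ern1 had a slope of −0.03 ± 0.11 (adjusted p = 0.928) over 9 libraries and −0.16 ± 0.03 (adjusted p = 0.0157) without LYT013, where it had less than any other library. Its lowest values among the other 8 were then 611, 657 and 680 normalised counts, in the 3 libraries with the most Col1a1 (LYT005, LYT004 and LYT008). Ppp1r15a (−0.23 ± 0.06, adjusted p = 0.0488), Dnajb9 (−0.22 ± 0.06, adjusted p = 0.0403) and Creld2 (−0.27 ± 0.07, adjusted p = 0.0473) were the other negative calls. Over 9 libraries the slope of Ppp1r15a was −0.32 ± 0.10 (adjusted p = 0.0991) and that of Dnajb9 −0.13 ± 0.10 (adjusted p = 0.517). For Ppp1r15a, r was −0.721 (exact permutation p = 0.0229, 0.186 adjusted) and −0.421 without LYT004 and LYT005, so that relation rested on those libraries.

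Creb3l1, the factor tied to collagen, had a positive slope. Its 3 highest libraries, LYT005 (3435 normalised counts), LYT008 (3284) and LYT004 (2683), were the 3 with the most Col1a1. The slope was 0.19 ± 0.05 (SE, limma adjusted p = 0.0699), with r = 0.820 (exact permutation p = 0.00808, 0.106 adjusted) and rho = 0.833 (exact p = 0.00827), and r = 0.881 without LYT004 and LYT005. Of the 24 alternatives it passed in 5, did not pass in 18 and changed sign in 1, with the cell cycle mean as covariate. Those where it passed included the fits without LYT013 (0.19 ± 0.05, adjusted p = 0.0378), without LYT004 (0.26, adjusted p = 0.0467) and with group label as covariate (0.22, adjusted p = 0.0310). Sec61a1, whose slope was 0.08 ± 0.05 (limma adjusted p = 0.422), did not pass.

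**Figure D4:**
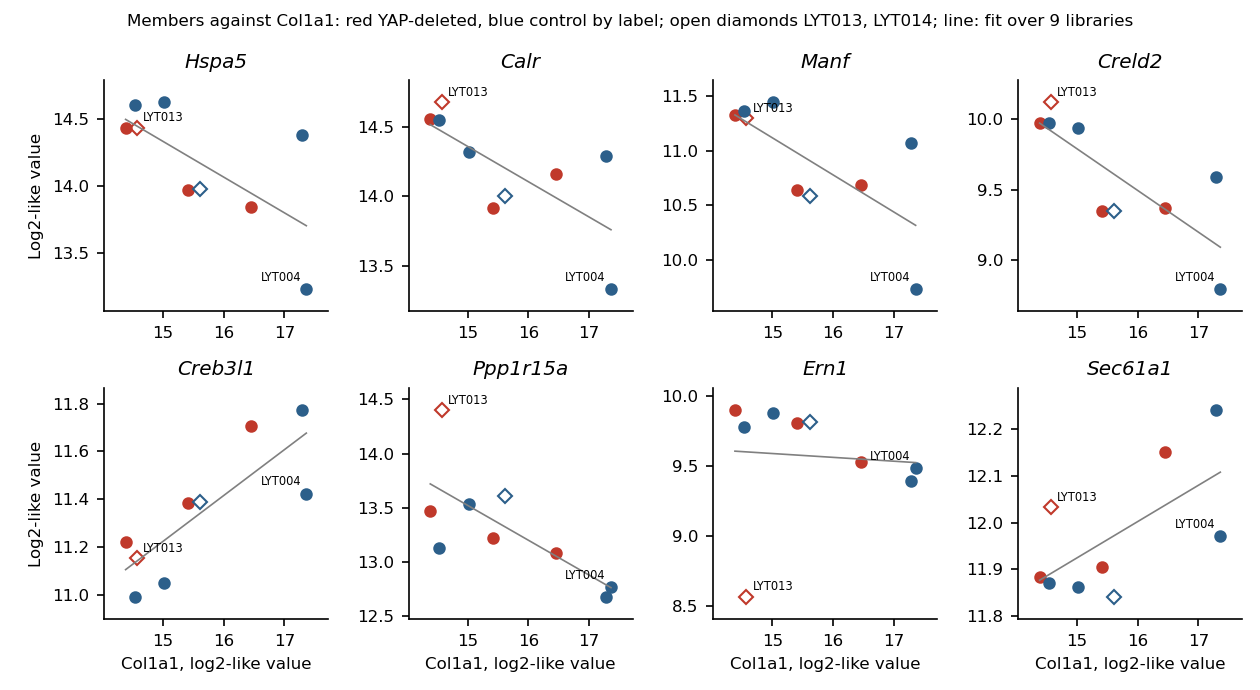
Log2-like values of 8 members (vertical axes, not starting at 0) against that of Col1a1 (horizontal) in the 9 libraries, YAP-deleted in red and control in blue, open diamonds for LYT013 and LYT014, with the limma line over 9 libraries. Hspa5, Calr, Manf and Creld2 slope down to LYT004 at the lower right, Creb3l1 slopes up, and Ern1 is flat unless LYT013 is left out.

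Cell cycle genes moved with Col1a1 in the same libraries. The mean of 20 cell cycle genes was 9.92, 9.96 and 10.40 in YAP-deleted LYT008 and in control LYT004 and LYT005, 8.66 in LYT014 and at most 7.30 in the other 5, with Mki67 at 68.2 to 6434 normalised counts. All 20 had positive slopes and 19 were called. With that mean as covariate 0 members and 0 of 17202 genes were called. The slopes of Creb3l1, Ern1, Dnajb9 and Sec61a1 then took the other sign, while 10 of the 11 chaperone slopes were negative, with a median of −0.39. Those of Hspa5, Calr, Manf and Creld2 were −0.44, −0.70, −0.65 and −0.51, none past the test (adjusted p = 1.00, limma). Col1a1 level and cell cycle level cannot be told apart in these libraries. Markers of other cells moved with Col1a1 too. All 14 macrophage markers had negative slopes (median −0.33) and 7 were called. Of 10 liver endothelial markers 9 were negative (median −0.33) and 1 was called, Clec4g. Their sum was 2269 to 4523 normalised counts in YAP-deleted and 1433 to 4715 in control libraries, with Stab2 at 6.13 to 409. Of 12 stellate markers 9 were negative and 2 were called. Of the 7 tested B and plasma cell genes 1 was called, Sdc1, with a positive slope (0.50, limma adjusted p = 0.000197). Of 12 hepatocyte markers 8 had negative and 4 positive slopes (median −0.13), and 0 were called. Their sum was 405 normalised counts in control LYT014, 648 in control LYT004, 737 in YAP-deleted LYT006 and 793 in YAP-deleted LYT008. It was 1107 to 1424 in the other libraries, among them 1197 in control LYT005. The hepatocyte gene Alb ran from 180 to 764. The part of these cells in the chaperone slopes was not tested.

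All 10 members with an ERSE or ERSE-II had negative slopes on Col1a1, with a median of −0.15 and a range of −0.29 to −0.05. The 21 members with a window and neither element had 9 positive and 12 negative slopes, with a median of −0.02. However, 7 of the 10 are chaperones, and the 2 chaperones with a window and neither element (Dnajb9 and Sdf2l1) and the 2 with no window (Hyou1 and Manf) also had negative slopes, so the sign was not particular to the element. Between the groups the 10 had a median difference of 0.08 (8 positive and 2 negative), and the 21 had −0.06 (8 positive and 13 negative). These are counts over members that share libraries and a pathway, and no test was made of them.

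Other genes of the pathway were examined in 6 lists. Between the groups 0 of 29 folding and disulfide genes, 0 of 19 degradation genes, 0 of 30 translocation and glycosylation genes, 0 of 14 COPII genes, 0 of 28 genes of the ATF4 program and 0 of 15 sensors and regulators passed. Against Col1a1 the slopes of the 29 folding genes were 14 positive and 15 negative (median −0.03). Of these, 2 were called positive, beside 4.04% of all genes, the disulfide reductase Dnajc10 (slope 0.21, limma adjusted p = 0.0208) and the prolyl isomerase Fkbp11 (0.24, adjusted p = 0.0332). Fkbp11 had few counts, from 16.1 normalised counts in control LYT017 to 73.5 in control LYT004. Dnajc10 had its 3 highest values, 3798, 3378 and 3272 normalised counts, in LYT005, LYT008 and LYT004. Of 19 degradation genes 2 were called negative, beside 1.1% of all genes, and 0 positive. They were Selenos (−0.23, limma adjusted p = 0.0390) and Derl3 (−0.17, adjusted p = 0.0443), which serve retrotranslocation. Derl3 also had few counts, from 11.7 normalised counts in control LYT004 to 34.2 in YAP-deleted LYT016. The 19 slopes were 8 positive and 11 negative.

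Of the 28 other ATF4 program genes 5 were called positive and 0 negative against Col1a1, beside 4.04% and 1.1% of all genes, and the list as a whole had 16 positive and 12 negative slopes (median 0.02). They were the serine synthesis genes Psat1 (slope 0.56, limma adjusted p = 0.00690) and Phgdh (0.25, adjusted p = 0.0437), the mitochondrial folate enzyme Mthfd2 (0.42, adjusted p = 0.00545), the proline synthesis gene Pycr1 (0.30, adjusted p = 0.0206) and the amino acid transporter Slc7a5 (0.29, adjusted p = 0.0417). Phgdh was barely detected in some libraries, from 5.77 normalised counts in YAP-deleted LYT006 to 42.9 in control LYT005. Psat1 had 56.5, 202 and 73.4 normalised counts in YAP-deleted LYT006, LYT008 and LYT016 and 72.4 in LYT013, against 178, 391, 46.2 and 55.1 in control LYT004, LYT005, LYT015 and LYT017 and 89.9 in LYT014. Its 3 highest libraries were again those with the most Col1a1 and the highest cell cycle mean. With the cell cycle mean as covariate all 5 slopes took the other sign (−0.16 to −0.03). Atf4 itself had its lowest value in LYT005, at 3440 normalised counts. No gene passed among the translocation, COPII and sensor lists.

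Transcript length accompanied the position of LYT013. Relative to the median of the other 8 libraries, the median of all tested genes in LYT013 was 0.28 for short genes (longest transcript up to 2153 bases), 0.03 for middle ones and −0.30 for long ones (over 3892 bases), in classes of equal number. All 11 long members were lower in LYT013 than that median, with a median of −0.80, among them Ern1 (−1.23), Sec24d (−1.02), Creb3l2 (−1.02) and Sel1l (−0.92). The members above it included Ddit3 (1.56), Atf4 (1.09) and Sec61b (0.98), all short, and Ppp1r15a (1.23) and Edem2 (0.80), of middle length. These members lay farther out than the median of their length class, and the part of length in their values was not tested. As a set the 10 short members did not lie above it in LYT013, with a median of −0.04, and the 15 middle ones had 0.26. Herpud1 (−0.39), Sdf2l1 (−0.09) and Xbp1 (−0.02) were among the short members below it. LYT004 had no such step down with length over all genes. Its medians were −0.07, 0.00 and 0.06, while Manf stood at −1.45, Sdf2l1 at −1.22 and Hspa5 at −1.17.

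**Figure D5:**
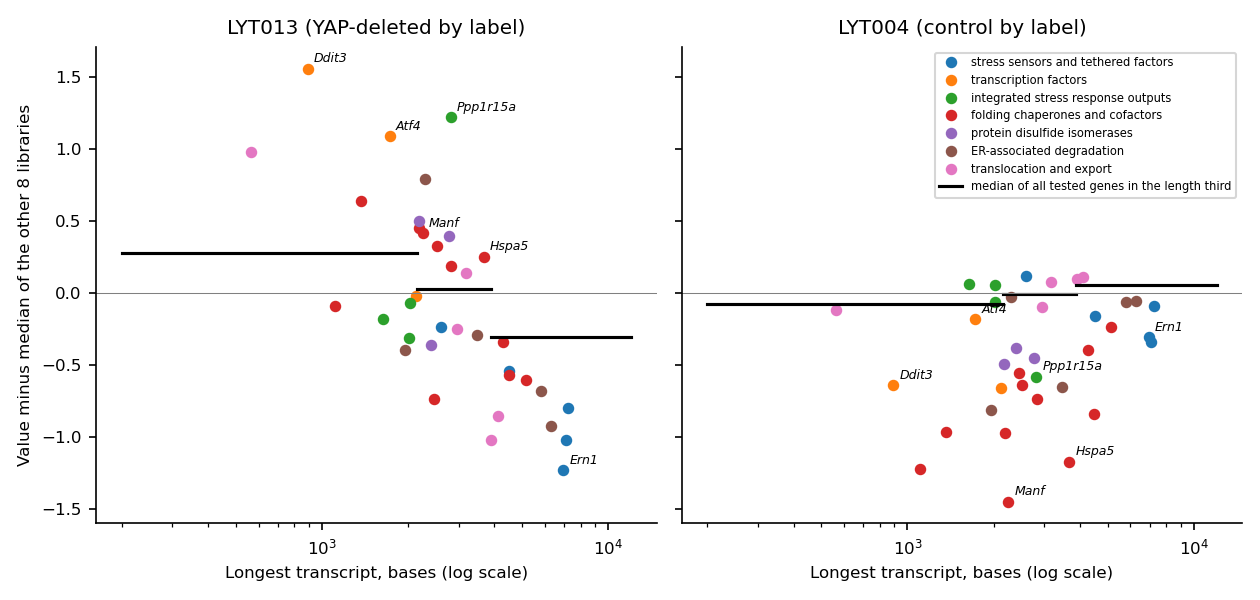
Log2-like value of each member in LYT013 (left) and LYT004 (right) minus its median over the other 8 libraries, against the length of its longest transcript (log axis, bases), coloured by role, with black bars for the median of all tested genes in each length class. In LYT013 the bars step down from 0.28 to −0.30 and the members spread around them, whereas in LYT004 the bars stay near 0 and the chaperones lie below them.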

How the data were processed

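RNA was measured in 9 libraries of sorted stellate cells. Groups and library codes came from the sample titles, and the column headed LYT013.1 was taken as LYT013. The tools named in the submitters' processing notes are sleuth, kallisto 0.44.0 and bcl2fastq 2.20, and the builds GRCm38, mm10 and GRCh38 are named there without a role. Per the labels' protocols, poly-A and ribosomal depletion TruSeq preparations were made, without saying which one each library received. The authors deposited 35024 rows of log2 values with variance stabilisation (log2-like here). The step that made them was not given in the sources used here, and 13872 rows held the lowest value (4.96) in every library.

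Inverting the inverse hyperbolic sine form gave whole numbers to within 0.1 for 100% of values in every library. Normalised counts are these recovered counts divided by the library's size factor. Differences and slopes are on the deposited scale, which understates changes of genes with few counts. Intervals from counts were not used, since replicate spread is given instead.

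Genes that exceeded that lowest value in 4 or more libraries entered limma 3.58.1 (R 4.3.3), with a mean-variance trend, two-sided, Benjamini-Hochberg at 0.05 over 17203 genes (17202 for slopes, Col1a1 left out). The main test was not made on counts, because the deposited unit is log2-like, and voom on the recovered counts was run as an alternative. Pearson r and Spearman rho had exact two-sided permutation p-values over all 362880 orders (scipy 1.17.1, numpy 2.4.6), and their largest gap in Col1a1 was 0.840 of a range of 2.98. The procedure was tested on simulated data. Alternatives covered filters, scaling, transformation, moderation, weights, covariates, the measure of load, library codes and each library left out. Members, lists, markers and tests were chosen with earlier results of these data known. All 36 members may be named, and of other lists those past the threshold or with the smallest p. Positions and transcript lengths are from GENCODE M21 on GRCm38, and promoters from RefSeq. The planned description of C-terminal retrieval signals was not made, since protein sequences were not used here.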

Additional observations from a re-analysis of the deposited data

Results flagged for a closer look

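In groups of 4 or 5 libraries, 72 sets of member values were examined for a library far from the others of its label, and 4 stood out, where chance gives about 1 in 20. At that rate 72 sets give about as many as the 4 found, and the sets share libraries. All 4 were in the YAP-deleted group and 3 were LYT013, whose Yap1 level goes against its label. Atf4 was at 13.20 log2-like units in LYT013, against 12.01 to 12.17 in the other YAP-deleted libraries. Ddit3 was at 10.00 in LYT013, against 8.30 to 8.52 in the others. Sec24d was at 10.76 in LYT013, against 11.68 to 11.85 in the others. Sdf2l1 was at 9.27 in YAP-deleted LYT016, against 8.81 to 8.87 in the others, and its highest control value, in LYT015, was 578 normalised counts, above the 558 of LYT016.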

How the results depend on the processing

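No member was called between the groups under any of the 22 alternatives. Of the 13 member differences followed through them, those of Calr, Ppp1r15a, Edem1, Sel1l, Sec23a and Sec61b kept their sign. Signs changed as follows. Hspa5 was −0.00814 with quantile normalisation, −0.00676 with voom, −0.16 with library weights, −0.17 with the cell cycle covariate, −0.13 without LYT013 and LYT014, −0.22 with Col1a1 as covariate, and −0.22 to 0.12 with 1 library left out. Manf was −0.0694 with weights, −0.0502 with the cell cycle covariate, −0.0164 without LYT013 and LYT014, −0.12 with Col1a1 as covariate and −0.12 to 0.30 with 1 library left out. With weights Atf4 was −0.000828 and Ddit3 −0.0914, and with 1 library left out they ran from −0.0111 to 0.38 and −0.10 to 0.48. Ern1 was 0.11 without LYT013 and LYT014, 0.23 in codes 4 to 8 and −0.37 to 0.0763 with 1 left out. Among codes 4 to 8 Atf6 was 0.0441 and Creb3l1 −0.0519, and Creb3l1 ran from −0.0718 to 0.15 with 1 left out.

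For the slope on Col1a1, 0 members were positive and 1 negative over 9 libraries. With 1 library left out there were 0 to 1 positive and 0 to 4 negative. There were 1 positive and 4 negative with library weights, 1 and 5 without LYT013 and LYT014 (994 and 613 over all genes) and 1 and 0 with group label as covariate (649 and 186 over all genes). There were 0 negative without the filter, with the cell cycle covariate, within codes 4 to 8, within codes 13 to 17 and with Col3a1. With the cell cycle covariate the slopes changed sign for Creb3l1 (−0.04999), Ern1 (0.0695), Dnajb9 (0.0936), Sec61a1 (−0.0507), Psat1 (−0.16), Mthfd2 (−0.12), Pycr1 (−0.11), Slc7a5 (−0.0289) and Phgdh (−0.0717). In codes 13 to 17 they did so for Ern1 (0.30), Ddit3 (0.26), Sec61a1 (−0.0708) and Phgdh (−0.0761), and in codes 4 to 8 for Dnajb11 (0.0286). Ern1 ran from −0.16 to 0.0181 with 1 left out. Over all genes the calls were 695 positive and 190 negative as reported, 1214 and 767 with weights, 0 and 0 with the cell cycle covariate and within either code range, and 570 and 433 with each library centred on its median. The causes were not tested. No paired analysis was possible because the groups share no replicate numbers.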
